A study of Mus musculus with 24 samples.

Results

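The genes whose symbols start with Snord, Snora or Scarna were described in mouse liver. They are small nucleolar RNAs of the box C/D type (Snord) and the box H/ACA type (Snora) and small RNAs of Cajal bodies (Scarna). Membership was set by symbol alone, from the gene annotation of the array, but the set was chosen with earlier results of these data known. Of 24704 genes tested, 107 carried such a symbol, 65 Snord, 34 Snora and 8 Scarna. Whole-liver RNA of 24 samples had been hybridised to Affymetrix mouse gene arrays, with 3 arrays in each of 8 groups. HepCAV1ko mice carried a floxed Cav1 gene and a heterozygous Cre recombinase driven by the albumin promoter, which is active in hepatocytes. HepCAV1wt mice carried the floxed gene without Cre, so that the floxed allele was shared by all groups. Males and females of both genotypes received for 4 weeks either the methionine and choline deficient (MCD) diet, which gives a fatty, inflamed liver, or its control diet, and livers were taken at an age of 12 weeks. The 8 groups were thus HepCAV1ko and HepCAV1wt males and females on MCD and on control diet.

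Box C/D RNAs guide the methylation of the ribose in ribosomal RNA, within a particle built on fibrillarin (Fbl), Nop56, Nop58 and Snu13. Box H/ACA RNAs guide the conversion of uridine to pseudouridine, within a particle of Dkc1, Nop10, Nhp2 and Gar1. The Cajal body RNAs act in the same ways on the RNAs of the spliceosome. Most are cut out of the introns of other genes, often genes of ribosomal proteins and translation factors or long noncoding RNAs made to carry them, and a few members of both nucleolar types are needed for cutting the ribosomal RNA precursor.

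The arrays gave log2 values, so that a difference of 1 is a doubling. Hepatocyte genes were high on all arrays, as with albumin (Alb) at 13.46 to 13.53 and the transcription factor Hnf4a at 10.35 to 11.11. Over all genes, the correlation between replicate arrays was 0.981 to 0.991. Cav1, the deleted gene, lay between 3.51 and 4.36 in HepCAV1ko and between 3.84 and 4.94 in HepCAV1wt arrays. These ranges overlapped, other liver cells also carry Cav1, and where its probes lie relative to the deletion is not known here. The genotype labels could therefore not be checked with these values. The labels do not say that each array is a separate mouse, and p-values therefore measure the spread between arrays.

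The small RNAs were bright on these arrays. Their mean values over the 24 arrays ran from 1.60 to 11.47 with a median of 6.77, against a median of 3.83 over all genes tested. Of the 107, 90 lay above the median gene, 56 of 65 Snord, 29 of 34 Snora and 5 of 8 Scarna. The 8 Snord with the highest values were Snord32a, Snord22, Snord33, Snord100, Snord104, Snord49b, Snord99 and Snord47, with means of 10.40 to 11.47. Among the Snora these were Snora34, Snora21, Snora44, Snora16a, Snora47, Snora23, Snora5c and Snora3, with means of 8.93 to 9.93. Scarna6, which guides modification of the U5 spliceosomal RNA, had a mean of 9.34 and Scarna2 one of 8.33, and the other 6 Scarna followed from Scarna13 at 7.07 through Scarna9, Scarna3b and Scarna8 to Scarna3a at 2.12 and Scarna10 at 1.89. Brightness also depends on the probes, and the order of these values is not one of abundance.

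Spread between arrays of a group was larger for these RNAs than for other genes. The median within-group SD was 0.32 for the 107 RNAs (0.30 for Snord, 0.39 for Snora and 0.33 for Scarna), and it was 0.22 for genes above the median expression. The 4 RNAs with the widest range over the 24 arrays were Snora36b (from 2.33 to 7.22), Snord45b (from 4.24 to 7.35), Snora74a (from 4.34 to 7.41) and Snord69 (from 7.73 to 10.64).

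One array stood apart. In HepCAV1ko males on MCD, the Snora averaged 6.39, 7.52 and 6.49 in replicates 1, 2 and 3, and 94.1% of them were above their group mean in replicate 2. Snora36b was at 2.82, 7.22 and 3.83 in these arrays and Snora74a at 5.19, 7.41 and 5.24. The Snord mean of replicate 2 was also the highest of all 24 arrays, at 7.58, beside 7.09 and 7.15 in replicates 1 and 3, and 12 other small RNA genes (such as Rmrp, Rny1 and Rn7sk) averaged 6.86 in it, beside 6.39 and 6.41. Snora were likewise high in replicate 1 of the control-fed HepCAV1wt females, with means of 7.12, 6.38 and 6.39 in replicates 1, 2 and 3. The lowest Snord mean of all arrays, 6.54, was that of replicate 1 of the HepCAV1wt males on MCD, where Snord69 was at 7.73 and the other 2 arrays gave 10.08 and 10.23. The part of RNA quality in these differences was not tested, and values without these arrays are given below beside the medians and counts that moved most.

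**Figure D1:**
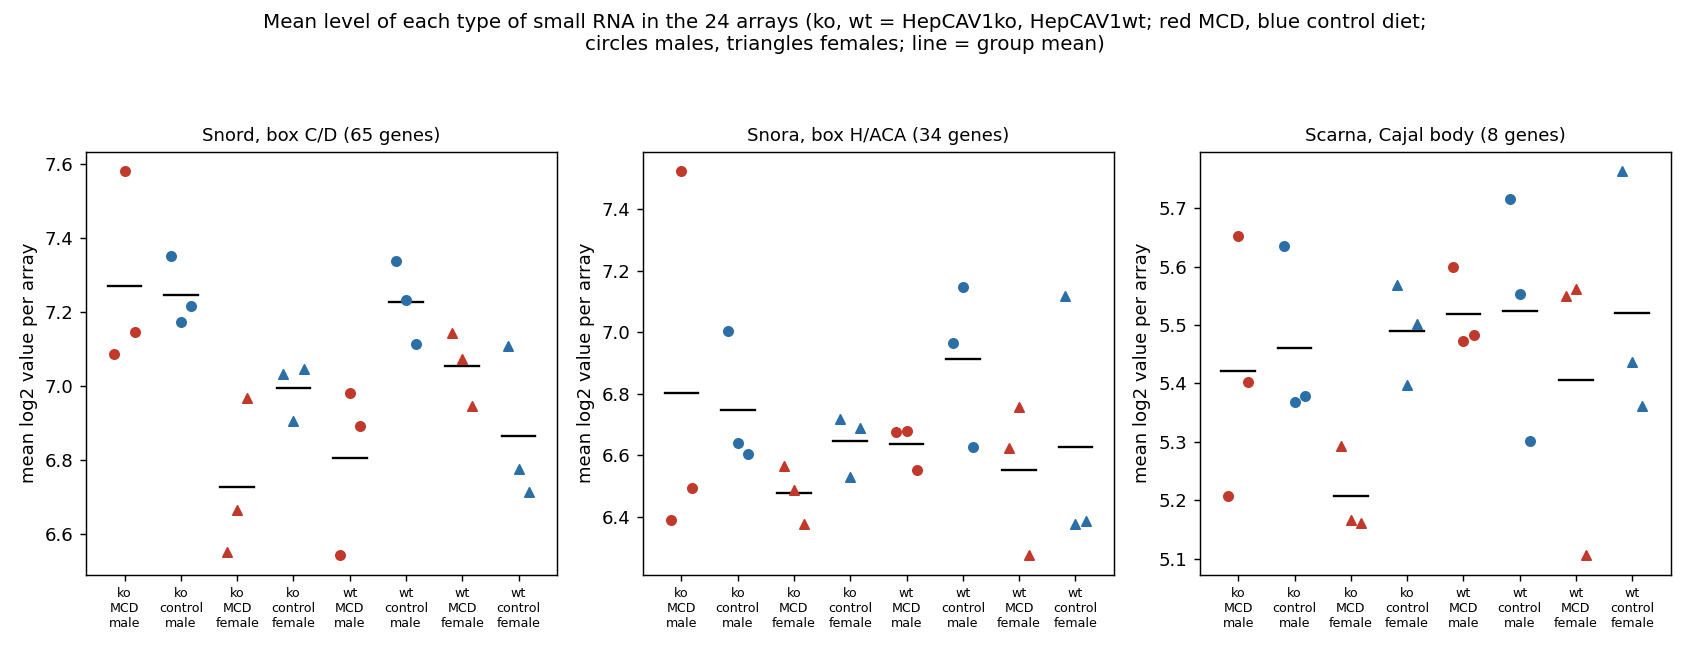
Mean log2 value of the Snord, Snora and Scarna (y axes) in each of the 24 arrays, by group (x axis). Each point is 1 array and each line a group mean, and replicate 2 of the HepCAV1ko males on MCD reaches 7.52 for the Snora, above every other array.

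Snord means differed between the 8 groups. In HepCAV1ko the Snord averaged 7.27 ± 0.27 (SD, n = 3) in males on MCD and 7.25 ± 0.09 in males on control diet, and 6.73 ± 0.21 in females on MCD and 6.99 ± 0.08 in females on control diet. In HepCAV1wt they averaged 6.80 ± 0.23 in males on MCD and 7.23 ± 0.11 in males on control diet, and 7.05 ± 0.10 in females on MCD and 6.86 ± 0.21 in females on control diet. All arrays of HepCAV1wt males were lower on MCD than on control diet, and the ranges of the diets overlapped in the other 3 combinations of genotype and gender. Snora group means lay between 6.48 and 6.91 and Scarna group means between 5.21 and 5.52. Because whole liver was measured, fewer cells of a type and less RNA per cell cannot be told apart.

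All 107 RNAs matched a RefSeq entry by gene ID (assembly GRCm38.p6), with lengths of 42 to 275 bases, and 103 lay inside another gene. Strand was not used for this match. The gene around a small RNA is called its host here, and 85 of the 103 lay in 1 of 65 measured hosts. Snord118 and Snord13 (both known to have promoters of their own), Scarna2 and Snord89 lay inside none. Among the hosts of several members were Rpl13a (Snord32a, Snord33, Snord34 and Snord35a), the long noncoding gene 2410006H16Rik (Snord49a, Snord49b and Snord65), Snhg3 (Snora73a and Snora73b) and Rps3a1 (Snord73a and Snord73b). A signal from an intron can be the mature RNA or its host's unspliced transcript, which these probes cannot tell apart. Pairs of near-identical copies such as Snord73a and Snord73b, Snora73a and Snora73b, Snord15a and Snord15b or Snord88a and Snord88c can share part of their signal.

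The promoters of these 4 hosts are shown as examples of hosts that carry several of the RNAs described below. Each is the RefSeq sequence from 60 bases before to 20 bases after the start, on the strand of the gene. Capitals mark an unbroken run of at least 8 C or T bases that touches the 15 bases on either side of the start, the feature with which transcripts of the translation machinery typically begin.
2410006H16Rik, chr11:62602817-62602896, plus strand: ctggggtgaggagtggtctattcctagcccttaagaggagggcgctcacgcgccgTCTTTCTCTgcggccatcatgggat
Rpl13a, chr7:45128726-45128805, minus strand: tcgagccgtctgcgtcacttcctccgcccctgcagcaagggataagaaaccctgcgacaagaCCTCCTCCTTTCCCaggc
Rps3a1, chr3:86142649-86142728, minus strand: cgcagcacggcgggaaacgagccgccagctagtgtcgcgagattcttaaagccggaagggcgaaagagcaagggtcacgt
Snhg3, chr4:132353667-132353746, minus strand: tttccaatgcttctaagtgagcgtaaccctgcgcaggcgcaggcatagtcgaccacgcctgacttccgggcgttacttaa
Only the strand of the gene was searched. Among hosts with a promoter in the table, measured on the array or not, such a run stood in 18 of 65 (27.7%), it stood in 5416 of all 27025 genes with one. No run of these letters stood in the Rps3a1 and Snhg3 windows.

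Averaged over both genotypes and both genders, the MCD diet lowered more small nucleolar RNAs than it raised. With an adjusted p under 0.05 (limma, Benjamini-Hochberg over all genes), 19 of 107 fell and 7 rose. That is 17.8% and 6.54% of them, where 9.39% of all genes fell and 9.79% rose. Among the Snord 13 fell and 5 rose, among the Snora 6 fell and 1 rose, and among the Scarna 0 fell and 1 rose. The median log2 difference was -0.08 for the Snord, -0.15 for the Snora and -0.21 for the Scarna, beside -0.02 for all genes. Over the omissions of 1 array the Snora median was -0.23 (without replicate 2 of the HepCAV1ko males on MCD) to -0.12, and the Snord median -0.12 to -0.04, nearest to 0 without replicate 3 of the control-fed HepCAV1ko males, at -0.04, replicate 1 of the HepCAV1ko females on MCD, at -0.04, and replicate 1 of the HepCAV1ko males on MCD, at -0.05. Of the 19 that fell, 16 were below 0 in each of the 4 combinations of genotype and gender (all but Snord73b, Snora15 and Snora20), and 4 of the 7 that rose were above 0 in each (all but Snord19, Snord22 and Snord49b). Without replicate 2 of the HepCAV1ko males on MCD 31 passed, and over all 24 omissions of 1 array the count was 20 to 31.

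Snord90, Snord66 and Snord37 fell furthest among the box C/D RNAs. Snord90 had a lowest, median and highest log2 value of 4.73, 5.02 and 6.28 in the 12 MCD arrays, against 5.23, 6.22 and 6.59 in the 12 control arrays, a log2 difference of -0.94 (SE 0.11, adjusted p = 1.66e-06). The highest MCD arrays were replicates 2 and 3 of the HepCAV1ko males, at 6.28 and 5.69, and the lowest control arrays were those of the HepCAV1wt females, at 5.71, 5.71 and 5.23. Within each combination of genotype and gender except HepCAV1ko males, all MCD arrays were below all control arrays.

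Snord66, a guide of methylation in the RNA of the small ribosomal subunit, was at 6.36, 7.31 and 7.92 (lowest, median, highest) in the MCD arrays, against 7.57, 8.17 and 8.54 in the control arrays. Its log2 difference was -0.94 (SE 0.12, adjusted p = 4.03e-06), and only replicate 2 of the HepCAV1ko males on MCD (7.92) reached into the control range. Snord37, which guides methylation in the RNA of the large subunit, was at 3.33, 3.75 and 4.35 in the MCD arrays, against 4.07, 4.42 and 5.65 in the control arrays, with a difference of -0.82 (SE 0.11, adjusted p = 6.94e-06). It was highest in the control-fed HepCAV1wt males, at 5.55, 5.65 and 4.78.

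The copies Snord73a and Snord73b fell as well. Snord73a was at 5.06, 5.59 and 6.11 (lowest, median, highest) in MCD arrays, against 5.65, 6.22 and 6.79 in control arrays, a difference of -0.60 (SE 0.10, adjusted p = 1.28e-04). Snord73b differed by -0.44 (SE 0.09, adjusted p = 8.41e-04) and was at 0.06 in HepCAV1wt females. Snord89 fell by 0.64 on the log2 scale, Snord52 by 0.55, Snord111 by 0.52 and Snord23 by 0.46. Snord13, which is needed for a base acetylation in the RNA of the small subunit, fell by 0.58 (adjusted p = 0.0153). Snord67, Snord104 and Snord85 completed the Snord that fell, at -0.35, -0.30 and -0.29.

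Snord123 and Scarna6 had the smallest p-values among those that rose. Snord123 was at 3.61, 4.30 and 4.99 (lowest, median, highest) in MCD arrays, against 3.30, 3.71 and 3.97 in control arrays, a log2 difference of 0.55 (SE 0.10, adjusted p = 4.31e-04). Scarna6 was at 9.23, 9.64 and 10.18 in MCD arrays, against 8.47, 9.10 and 9.55 in control arrays, a difference of 0.58 (SE 0.11, adjusted p = 5.15e-04). In both RNAs the upper part of the control range overlapped the lower part of the MCD range. Snord19 (0.44), Snord49b (0.33), Snord15a (0.30) and Snord22 (0.24), a box C/D RNA needed for cutting the precursor of the small subunit RNA, also rose.

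Among the box H/ACA RNAs 1 rose and 6 fell. Snora73a, which is needed for early cuts in the ribosomal RNA precursor, was at 5.54, 6.54 and 7.56 (lowest, median, highest) in MCD arrays, against 5.04, 5.96 and 6.69 in control arrays, a difference of 0.63 (SE 0.21, adjusted p = 0.036). Its copy Snora73b differed by 0.47 (adjusted p = 0.137). The 6 that fell were Snora20 (-0.70, SE 0.21, adjusted p = 0.0183), Snora28 (-0.42), Snora30 (-0.58), Snora44, Snora15 and Snora43. Snora73a, Snora30, Snora44, Snora15, Snora43, Snord15a and Snord22 lost their call under 6 to 20 of 31 alternative settings each (adjusted p of up to 0.0901), while the other 19 of the 26 called RNAs kept theirs under all of them. Without replicate 2 of the HepCAV1ko males on MCD, Snora73a was at 0.52 (adjusted p = 0.0708).

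**Figure D2:**
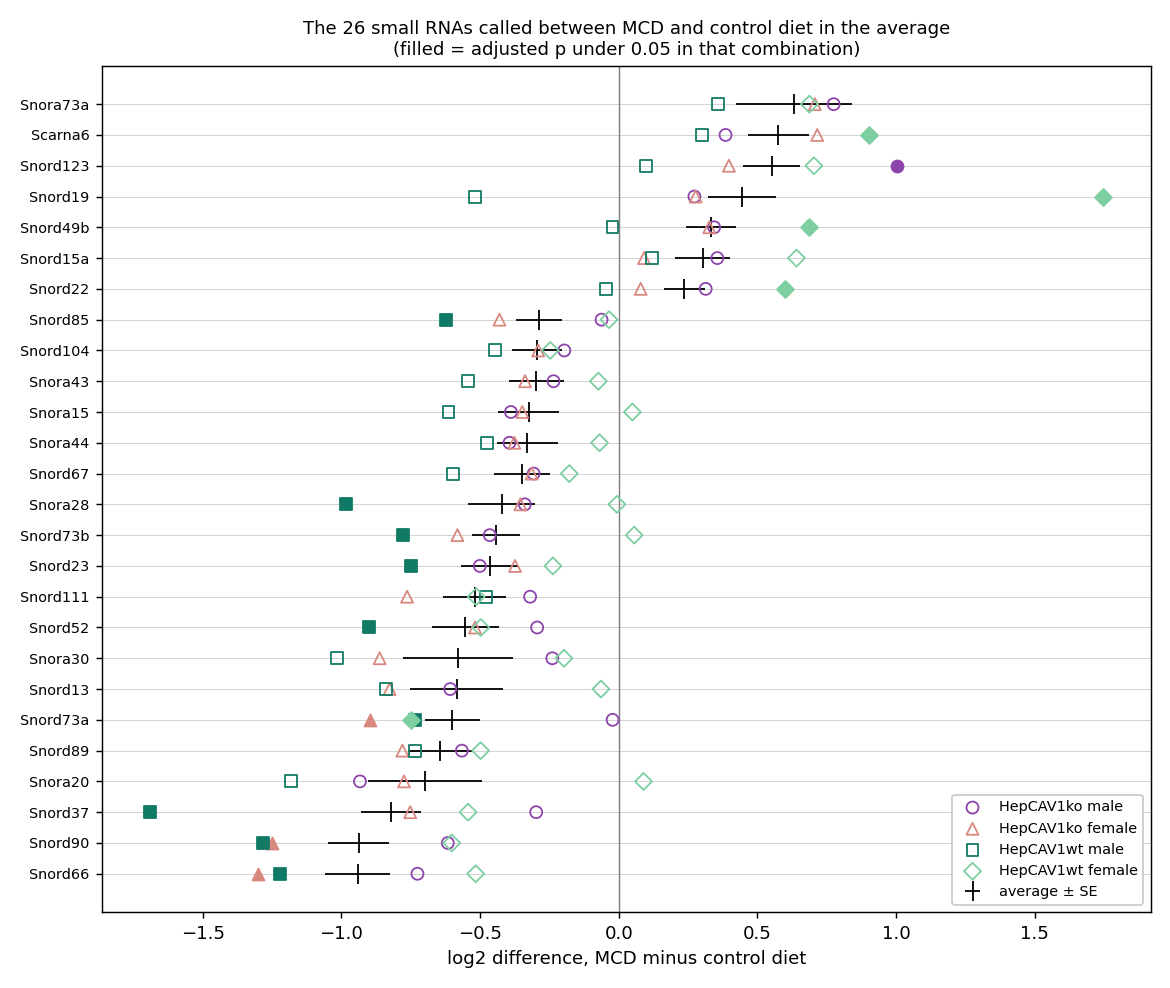
Log2 difference between MCD and control diet (x axis) of the 26 small RNAs called in the average (rows). The black bar is the average with its SE, each symbol is 1 combination of genotype and gender, and filled symbols passed the test there, as Snord37 did at -1.69 in HepCAV1wt males.

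Among RNAs with known roles in the liver or in lipid handling, the 4 of the Rpl13a introns did not pass. Snord32a, Snord33, Snord34 and Snord35a are known as mediators of oxidative stress under lipid overload in cultured rodent cells. Their log2 differences between MCD and control diet were 0.06 (SE 0.10), -0.01 (SE 0.08), 0.07 (SE 0.14) and -0.14 (SE 0.10), with adjusted p = 0.755, 0.961, 0.783 and 0.415. Snord33 was at 10.76 to 11.97 in MCD arrays and at 11.10 to 11.80 in control arrays. Of the RNAs known for a part in the traffic of cholesterol in cultured cells, Snora73a rose and Snora73b did not pass. Of 7 RNAs listed here around the maturation of ribosomal RNA, Snora73a and Snord22 rose, and Snord13, named above for a base acetylation, fell. Snord118 was at -0.40, Snord14e at -0.28, Snord14a at -0.08 and Snora73b at 0.47 without passing.

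The 4 combinations of genotype and gender differed in which RNAs passed. In HepCAV1ko males 2 of 107 rose on MCD and 0 fell, where 3.62% of all genes rose and 3.02% fell. They were Snord123, at 4.40, 4.99 and 4.42 in MCD arrays against 3.93, 3.49 and 3.38 in control arrays (log2 difference 1.01, SE 0.21, adjusted p = 0.00366), and Snord43 (0.68, adjusted p = 0.0305). These Snord123 values did not overlap. In HepCAV1ko females 0 rose and 4 fell, where 0.765% of all genes rose and 0.878% fell. Snord90 was at 4.73, 4.88 and 5.03 in their MCD arrays against 6.03, 6.35 and 6.01 in control arrays (-1.25, SE 0.22, adjusted p = 0.00295), and Snord66 at 6.40, 6.65 and 7.18 against 8.18, 7.94 and 8.00 (-1.30, SE 0.23, adjusted p = 0.00409), and neither overlapped. Snord73a (-0.90) and Scarna9 (-1.07) also fell, and the call of Scarna9 (adjusted p = 0.0453) was lost in 16 of 24 omissions of 1 array. Without replicate 1 or replicate 3 of the control-fed or replicate 3 of the MCD-fed HepCAV1ko males the first count was 1, and without replicate 1 of the control-fed HepCAV1ko females the second was 2.

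In HepCAV1wt males 0 of 107 rose and 9 fell on MCD, where 2.28% of all genes rose and 2.09% fell. Snord37 was at 3.33, 4.02 and 3.55 in MCD arrays against 5.55, 5.65 and 4.78 in control arrays, a difference of -1.69 (SE 0.21, adjusted p = 4.3e-05). Snord90 followed at -1.28 (SE 0.22, adjusted p = 9.48e-04) and Snord66 at -1.22 (SE 0.23, adjusted p = 0.00299), and these 3 passed in every omission of 1 array. Snord73b, Snora28, Snord85, Snord52, Snord73a and Snord23 fell by 0.62 to 0.98 on the log2 scale. As a type, 57 of 65 Snord were below 0, with a median of -0.43. Without replicate 1 of the HepCAV1wt males on MCD, the array with low Snord, 48 were below 0 and the median was -0.26. The count was 4 without that array, and 4, 4 and 5 without replicates 1, 2 and 3 of the control-fed HepCAV1wt males.

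In HepCAV1wt females most calls were increases. There 9 of 107 rose and 1 fell on MCD, where 2.59% of all genes rose and 2.34% fell. Snord19 was at 4.77, 4.29 and 3.94 in MCD arrays against 2.77, 2.88 and 2.11 in control arrays, without overlap, a difference of 1.75 (SE 0.24, adjusted p = 1.71e-04). These control values were dim, below the median of 3.83 over all genes tested. Next came Scarna6 (0.90), Snord22 (0.60), Snord70 (1.24), Snord68 (1.01) and Snord49b (0.68), and Snord96a, Snord82 and Snord49a also rose. Snord73a fell by 0.75. Of these calls that of Snord19 alone was kept in every omission of 1 array, and the count of 10 became 1 without replicate 1 of the HepCAV1wt females on MCD, 4 and 5 without their replicates 2 and 3, and 3 without replicate 1 or 2 of the control-fed ones.

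The difference between genders in the response to diet was tested as an interaction. Of 107 RNAs 1 passed, where 0.534% of all genes did. This was Snord19, whose difference between MCD and control diet, averaged over the genotypes, was lower in males than in females (-1.14 on the log2 scale, male minus female, SE 0.24, adjusted p = 0.0303). In males it was 0.27 (HepCAV1ko) and -0.52 (HepCAV1wt), and in females 0.28 (HepCAV1ko) and 1.75 (HepCAV1wt). The control-fed HepCAV1wt females had a mean of 2.59, below the median of 3.83 over all genes tested, and the other 7 groups had means of 3.41 to 4.64. Its call was lost (adjusted p of up to 0.0734) in 10 of 24 omissions of 1 array. These were replicates 1 and 3 of the control-fed HepCAV1wt males, 3 of the control-fed HepCAV1wt females, 1 and 2 of the HepCAV1wt females on MCD, 2 of the control-fed HepCAV1ko males, 2 of the control-fed HepCAV1ko females, 1 and 2 of the HepCAV1ko males on MCD and 3 of the HepCAV1ko females on MCD. Snord37, which had the smallest p-value in the interaction of diet and genotype, was at 0.59 (SE 0.21, adjusted p = 1.0). In that interaction 0 of 107 RNAs and 0% of all genes passed, and at an unadjusted p under 0.05 1 RNA was higher and 0 were lower, where 1.68% of all genes were higher and 1.62% lower.

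**Figure D3:**
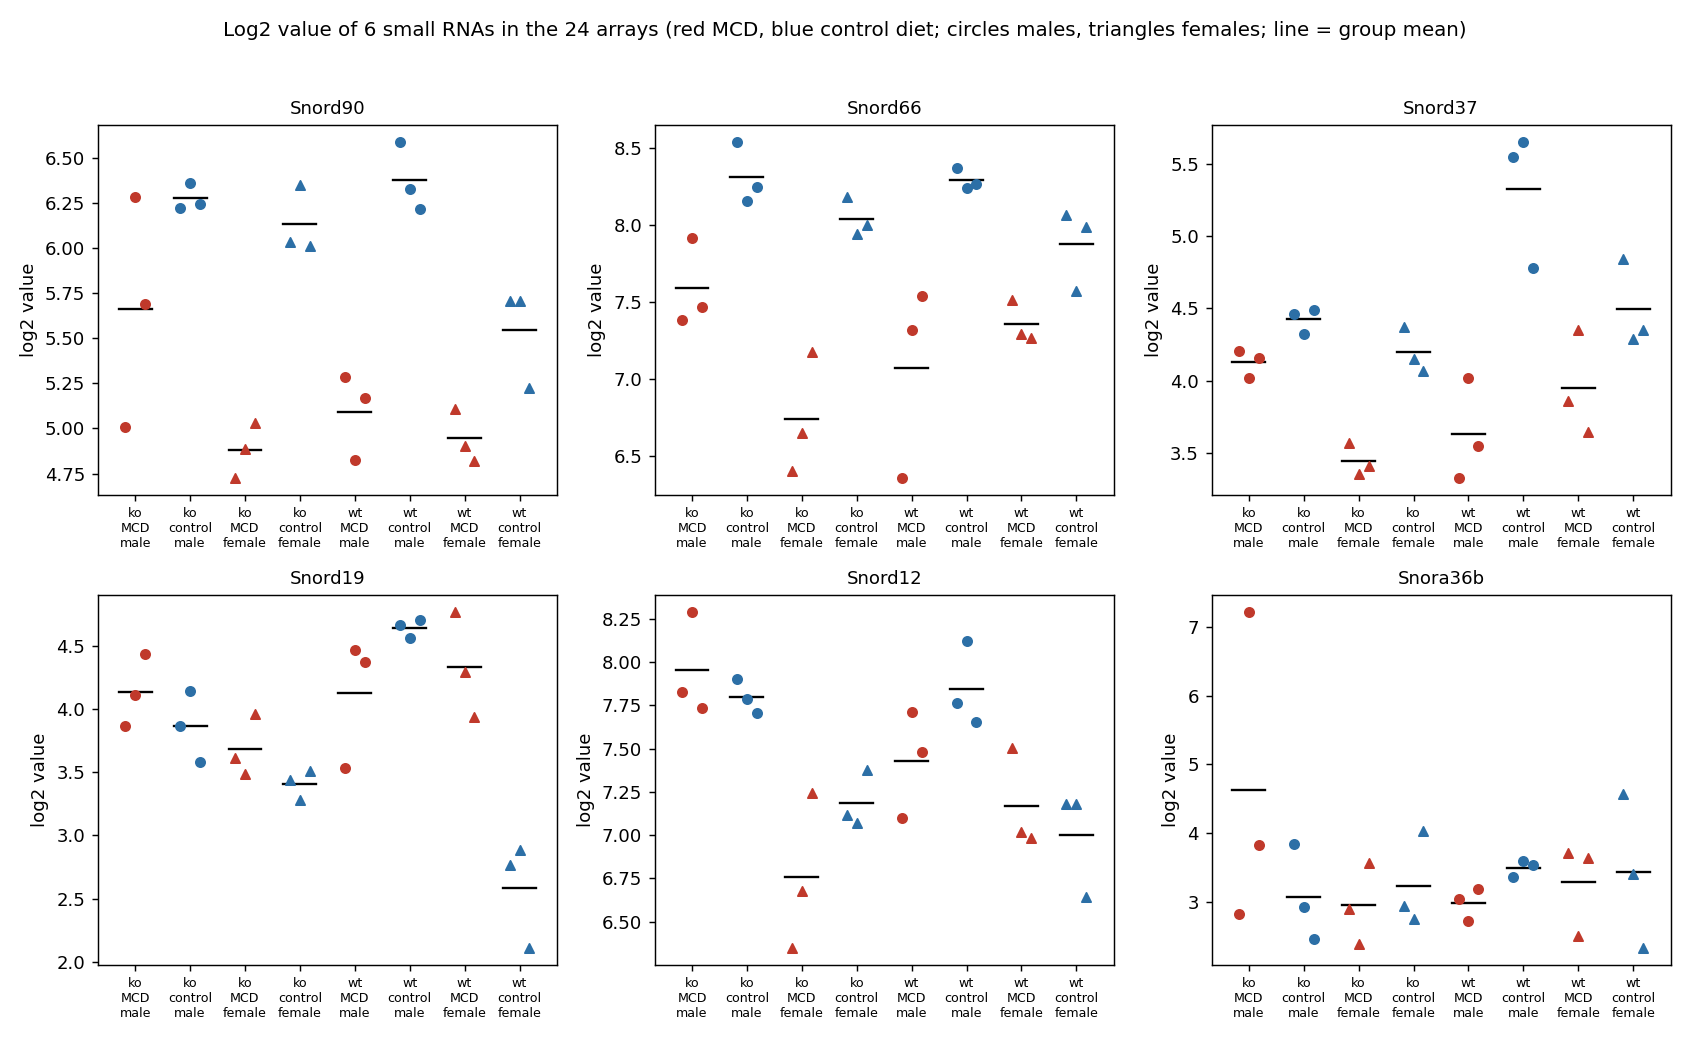
Log2 values (y axes) of Snord90, Snord66, Snord37, Snord19, Snord12 and Snora36b in each of the 24 arrays, by group (x axis), with lines at the group means. Snord19 is at 2.11 to 2.88 in the control-fed HepCAV1wt females, below the other 7 groups, and Snora36b reaches 7.22 in 1 array of the HepCAV1ko males on MCD.

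Averaged over genotypes and diets, 15 of 107 small RNAs were higher in males than in females and 0 were lower, 14.0% and 0% of them, where 1.68% of all genes were higher and 2% lower. All 15 were Snord. At an unadjusted p under 0.05 the count was 37 higher and 0 lower, with 28 Snord, 7 Snora and 2 Scarna. The share of all genes at that threshold was not counted, so the 37 cannot be set against it. The median log2 difference was 0.23 for the Snord, 0.22 for the Snora and 0.08 for the Scarna, beside 0.01 for all genes, and 95 of 107 RNAs were above 0. Without replicate 2 of the HepCAV1ko males on MCD the medians were 0.17 for the Snord, 0.11 for the Snora and 0.03 for the Scarna. Without replicate 3 of the HepCAV1wt females on MCD the Scarna median was 0.00.

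Snord12, which guides methylation in the RNA of the large subunit, was at 7.10, 7.75 and 8.29 (lowest, median, highest) in males, against 6.35, 7.09 and 7.50 in females, a log2 difference of 0.73 (SE 0.11, adjusted p = 1.88e-04). Snord19 was at 3.54, 4.26 and 4.71 in males, against 2.11, 3.50 and 4.77 in females, a difference of 0.69 (SE 0.12, adjusted p = 0.00125). The ranges of both overlapped, that of Snord12 with 2 male arrays below the highest female one. Snord17, which guides methylation in the large subunit RNA, was at 7.74, 7.97 and 9.10 in males, against 7.27, 7.47 and 7.85 in females, a difference of 0.54 (SE 0.11, adjusted p = 0.00383).

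Snord73b (0.48, adjusted p = 0.0018), Snord110 (0.47, adjusted p = 0.00917), a guide of methylation in the small subunit RNA, Snord90 (0.48, adjusted p = 0.0138) and Snord111 (0.48, adjusted p = 0.0166) followed. The remaining 8 were Snord100, Snord15a, Snord68, Snord65, Snord47, Snord72, Snord52 and Snord22, at 0.26 to 0.49 and adjusted p = 0.0249 to 0.0495. Of the 15, 8 were above 0 in each of the 4 combinations of genotype and diet (all but Snord15a, Snord19, Snord22, Snord47, Snord65, Snord68 and Snord73b). Snord12, Snord19, Snord73b, Snord17, Snord110, Snord90 and Snord111 kept their call under every alternative setting. Of these, Snord19 was at -0.21 and Snord73b at -0.14 in HepCAV1wt on MCD. The count ran from 7 without replicate 2 of the control-fed HepCAV1ko females to 21 without replicate 1 of the HepCAV1wt males on MCD. It was 8 or 9 without replicate 1 of the control-fed HepCAV1wt males, 3 of the control-fed HepCAV1wt females, 2 of the HepCAV1wt males on MCD, 3 of the HepCAV1wt females on MCD, 1 of the control-fed HepCAV1ko females, 2 of the HepCAV1ko males on MCD, or 1 or 2 of the HepCAV1ko females on MCD.

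The male excess was not found in every combination. On MCD the HepCAV1ko males exceeded the HepCAV1ko females in 58 of 65 Snord, with a median of 0.58, and 3 of 107 RNAs passed as higher and 0 as lower, where 0.0931% of all genes were higher and 0.109% lower. Snord12 was at 7.83, 8.29 and 7.74 in these males against 6.35, 6.68 and 7.25 in the females (1.20, SE 0.22, adjusted p = 0.0158), and Snord43 (0.91) and Snord110 (0.99) also passed. On control diet the HepCAV1ko males exceeded the females with a Snord median of 0.25, and 0 of 107 passed, where 0.672% of all genes were higher and 0.81% lower. Unadjusted, 12 were higher and 0 lower there, where 6.02% of all genes were higher and 5.51% lower, and the 12 became 4 without replicate 2 of the control-fed HepCAV1ko females.

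In HepCAV1wt on MCD the Snord median was -0.23 and 51 of 65 Snord were lower in males, but 0 of 107 passed, where 0.0891% of all genes were higher and 0.125% lower. Unadjusted, 3 RNAs were higher and 14 lower in these males, where 3.81% of all genes were higher and 3.93% lower. Without replicate 1 of the HepCAV1wt males on MCD, the array with low Snord, the median was -0.11, 40 of 65 Snord were lower and the 14 became 7. The 14 became 6 without replicate 1 of those females. The smallest p-values were those of Snord42a (-0.71, adjusted p = 0.269) and Snord82 (-0.78, adjusted p = 0.287). On control diet the HepCAV1wt males had a Snord median of 0.34 over the females, and of 0.25 to 0.46 over the omissions of 1 array. There 2 of 107 were higher and 0 lower, where 0.563% of all genes were higher and 0.708% lower. They were Snord19, at 4.66, 4.56 and 4.71 in males against 2.77, 2.88 and 2.11 in females (2.06, SE 0.24, adjusted p = 1.55e-05), and Snord68 (1.12, SE 0.26, adjusted p = 0.0282).

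Single arrays moved these small counts. The 3 calls in HepCAV1ko on MCD became 0 without replicate 2 of those males or of those females, 6 without replicate 3 and 1 without replicate 1 of those females, and 1 without any 1 of the 3 control-fed HepCAV1ko females, replicate 2 of the control-fed HepCAV1wt males or replicate 2 of the control-fed HepCAV1wt females. The 0 calls in HepCAV1ko on control diet became 2 without replicate 1 of the HepCAV1wt males on MCD and 1 without replicate 1 of the control-fed HepCAV1ko males. The 2 calls in HepCAV1wt on control diet became 5 without replicate 1 of those females, 1 without their replicate 2 or 3 or without replicate 1 or 2 of those males, and 4 without replicate 1 or 2 of the HepCAV1wt males on MCD, replicate 2 of the HepCAV1wt females on MCD or replicate 2 of the HepCAV1ko males on MCD. The call of Snord19 there was kept in all 24 omissions.

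**Figure D4:**
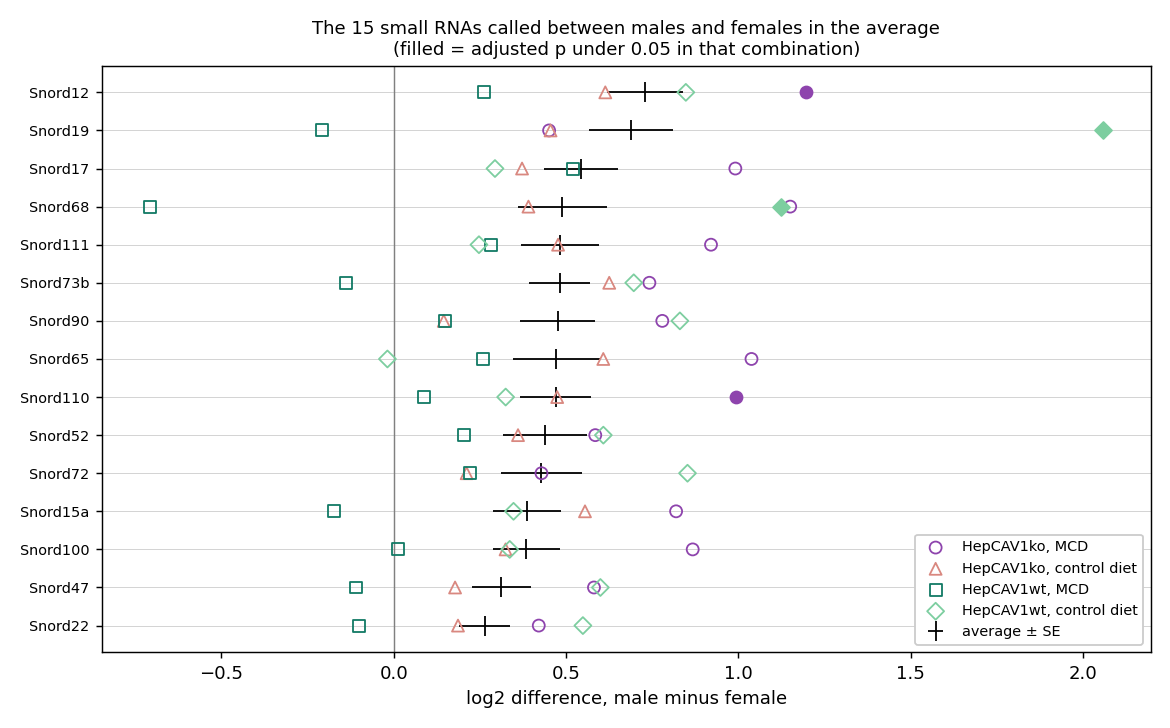
Log2 difference between males and females (x axis) of the 15 small RNAs called in the average (rows), with the average and its SE as black bars and the 4 combinations of genotype and diet as symbols, filled where they passed the test. In HepCAV1wt on MCD (open squares) Snord68 lies at -0.71, opposite to its 1.15 in HepCAV1ko on MCD.

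No small RNA passed between HepCAV1ko and HepCAV1wt. In the average over genders and diets 0 of 107 passed, where 0.00405% of all genes (1 gene) did. At an unadjusted p under 0.05 limma gave 6 higher and 3 lower RNAs, where 2.53% of all genes were higher and 2.45% lower, and 0 were called without moderated variances as well. Snord68, at 0.41 (SE 0.13), Snord37 at -0.30, Snord15b at 0.28, Scarna3a at -0.40, Snord55 at 0.35 and Snord90 at 0.25 had the smallest p-values, and none passed (adjusted p = 0.957 for each). The type medians were 0.07 for the Snord, 0.02 for the Snora and -0.12 for the Scarna, beside 0.00 for all genes, and none of them held its size when single arrays were left out. Over those omissions the Snord median was 0.03 to 0.10, lowest without replicate 1 of the HepCAV1wt males on MCD. The Snora median was -0.08 to 0.07, lowest without replicate 2 of the HepCAV1ko males on MCD, and the Scarna median -0.15 to -0.06. Without both of these arrays, an alternative chosen after seeing the data, the Snord median was -0.01. The 6 higher RNAs became 2 without replicate 2 of the HepCAV1ko males or replicate 3 of the HepCAV1ko females on MCD and 12 without replicate 1 of those females, and lay between in the other omissions.

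In males on MCD 60 of 65 Snord were higher in HepCAV1ko than in HepCAV1wt, with a median of 0.51, and in females on MCD 59 of 65 were lower, with a median of -0.34. None of the 107 passed in either, where 0% of all genes passed in males and 0% in females. At an unadjusted p under 0.05, 37 RNAs were higher and 1 lower in these males, where 2.13% of all genes were higher and 2.1% lower. These values moved without the arrays that held the lowest and the highest Snord mean. Without replicate 1 of the HepCAV1wt males on MCD the Snord median was 0.34 and 18 RNAs were higher and 0 lower. Without replicate 2 of the HepCAV1ko males on MCD the median was 0.35 and 16 were higher and 3 lower. Without both arrays, chosen after seeing the data, the median was 0.18, 45 of 65 Snord were higher, and 7 RNAs were higher and 2 lower at an unadjusted p under 0.05. In these females 0 were higher and 18 lower, where 1.85% of all genes were higher and 2.07% lower. Without replicate 1 of the HepCAV1ko females on MCD the median was -0.22, 54 of 65 Snord were lower and the 18 became 10. The 18 became 8 without their replicate 2, 28 without their replicate 3 and 9 without replicate 1 of the HepCAV1wt females on MCD. Snord68 in males (1.20, SE 0.26, adjusted p = 0.684) and Scarna9 in females (-0.85, adjusted p = 0.999) had the smallest p-values.

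On control diet the Snord median was 0.04 in males (-0.06 to 0.08 over the omissions of 1 array) and 0.14 in females (0.05 to 0.23 over these omissions). Of 107 RNAs 0 passed in control-fed males, where 0.00405% of all genes did, and 0 in control-fed females, where 0% did. Unadjusted, 2 were higher and 3 lower in males, where 2.76% of all genes were higher and 2.72% lower, and 6 were higher and 2 lower in females, where 2.85% were higher and 2.72% lower. Leaving out 1 array gave 1 to 6 higher and 3 to 6 lower in males, and 3 to 10 higher and 0 to 5 lower in females. Snord37 was at 4.46, 4.33 and 4.49 in control-fed HepCAV1ko males against 5.55, 5.65 and 4.78 in control-fed HepCAV1wt males, which did not overlap (-0.90, SE 0.21, adjusted p = 0.487).

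In the interaction of genotype and gender, averaged over both diets, 0 of 107 RNAs and 0% of all genes passed. Unadjusted, 27 RNAs were higher and 0 lower, 26 of them Snord, where 2.32% of all genes were higher and 2.36% lower. The Snord median was 0.40, against 0.00 for the Snora and 0.01 for the Scarna. The 27 became 17, with 1 lower, without replicate 1 of the control-fed HepCAV1wt females, and 16, with 3 lower, without replicate 2 of the HepCAV1ko males on MCD. Without that array and replicate 1 of the HepCAV1wt males on MCD the Snord median was 0.23, and 12 RNAs were higher and 3 lower. Snord34, of the Rpl13a introns, had the smallest p-value, at 1.19 (SE 0.27, adjusted p = 0.797). It was at 7.75, 8.34 and 7.96 in HepCAV1ko males on MCD against 7.20, 6.90 and 7.28 in HepCAV1wt males on MCD, and at 6.50, 6.67 and 7.54 in HepCAV1ko females on MCD against 7.78, 7.54 and 7.86 in HepCAV1wt females on MCD. In males the HepCAV1ko values were all higher, and in females the highest HepCAV1ko value equalled the lowest HepCAV1wt value to 2 decimals. Snord33 of the same introns (0.59) and Snord42b (0.75) came next, with adjusted p = 0.923 and 0.926.

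The hosts of the called small RNAs were set beside them on the MCD diet. Of the 26 called RNAs 21 had a measured host, and in 16 of them the host did not pass. Of all genes 9.79% rose and 9.39% fell, so that most genes did not pass either. In 12 of the 21 the difference of the host had the same sign as that of the RNA. Both passed in the same direction for 4, Snord123 with Snhg18 (0.36), Snord49b with 2410006H16Rik (0.51), Snora73a with Snhg3 (0.26) and Snord23 with Nop53 (-0.23). They passed in opposite directions for 1, Snord111 at -0.52 within Sf3b3, a splicing factor, at 0.25 (SE 0.06, adjusted p = 0.00718). The difference between a small RNA and its host was not tested.

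Snord90 lay in Rc3h2, an RNA-binding repressor, at -0.08 (adjusted p = 0.58), and Snord37 in Eef2, the elongation factor of translation, at 0.08 (adjusted p = 0.371). Scarna6 lay in the autophagy gene Atg16l1 at -0.08, and Snord73a and Snord73b in the ribosomal protein gene Rps3a1 at -0.37 (adjusted p = 0.179). Snord66 lay in Eif4g1 and the 4 RNAs of Rpl13a in that gene, and neither was among the genes tested here. Conversely, 22 RNAs that did not pass lay in hosts that did. Nop58 was at 0.67 and its Snord11 and Snord70 at 0.15 and 0.24. Nop56 was at 0.39 and its Snord57 and Snord110 at -0.10 and -0.02. The ribosomal protein gene Rpl27a was at 0.74 and its Snora3 at -0.45 (adjusted p = 0.29).

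Of the 65 measured hosts 14 rose and 5 fell, where 9.79% of all genes rose and 9.39% fell. The median of the hosts was 0.08, while the 85 RNAs within them had a median of -0.10. Across these 85 pairs, which share hosts and arrays and are not independent, Pearson's r between both log2 differences was 0.29. Between males and females r was 0.11, and for none of the 14 called RNAs with a measured host did the host pass. Only 1.68% of all genes were higher and 2% lower in males, so that few hosts would pass at that share. Snord12 lay in Zfas1 at 0.07, Snord19 in Gnl3 at 0.17, Snord17 in Snx5 at -0.06 and Snord110 in Nop56 at 0.27.

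**Figure D5:**
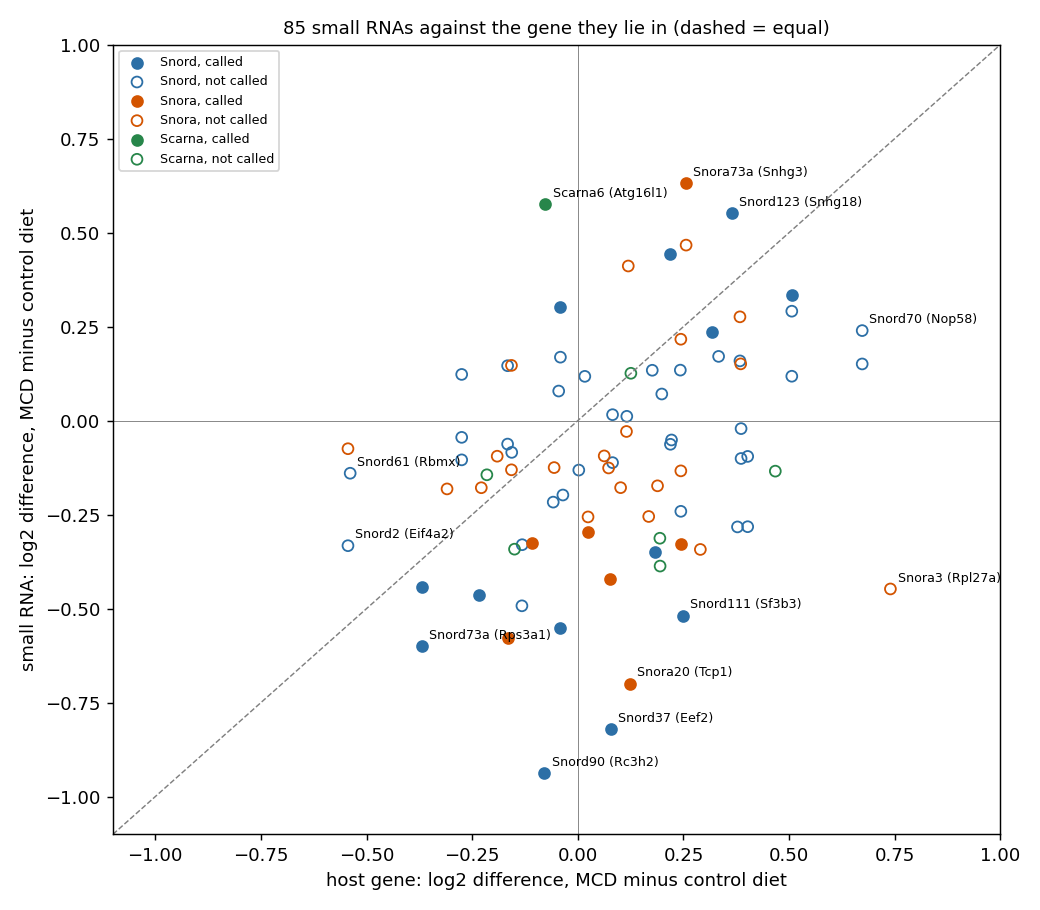
Log2 difference between MCD and control diet of 85 small RNAs (y axis) and of the gene each lies in (x axis). Each point is 1 small RNA, filled where it was called, and the dashed line marks equal differences. Snord90, Snord37 and Snora20 lie at -0.94, -0.82 and -0.70, and their hosts at -0.08, 0.08 and 0.12.

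Genes of the particles around these RNAs moved in both directions on MCD. Beside the counts of this paragraph stand 9.79% of all genes that rose and 9.39% that fell. Of 3 measured core proteins of box C/D particles, Nop58 (0.67) and Nop56 (0.39) rose and the methyltransferase Fbl was at -0.33 without passing. Of 4 of the box H/ACA particles, Nhp2 (0.36) and Gar1 (0.31) rose, and the pseudouridine synthase Dkc1 (-0.16) and Nop10 (-0.04) did not pass. Of 11 genes that assemble the particles 1 rose (Nufip1, 0.29) and 1 fell (Pih1d1, -0.25), and of 10 Cajal body genes such as Coil (-0.05) and Wrap53 (-0.17) 0 passed. Of 11 genes that trim or degrade the precursors, Xrn2 rose (0.25) and Zfc3h1 fell (-0.46). Of 20 long noncoding hosts, Snhg15, Snhg18 and Snhg3 rose and Snhg9 fell. Of 44 genes of ribosome production 6 rose and 3 fell, with a median of 0.11 and with Myc, a driver of that programme, at 1.34. Between males and females Noc4l (0.37) alone of all these genes passed, where 1.68% of all genes were higher and 2% lower.

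Other small RNA genes moved in both directions with diet. Among 12 such genes Rpph1 (0.97) and Rmrp (0.48), the RNA parts of RNase P and RNase MRP, and Rny1 (0.66), a Y RNA, rose, and Terc (-0.67), the telomerase RNA and itself of the box H/ACA kind, and Rnu7 (-0.40) fell, while Rn7sk was at -0.07. Of 543 microRNA hairpins 4 rose and 31 fell, where 9.79% of all genes rose and 9.39% fell. Their median difference was -0.03. The hairpins were dim, with array means between 2.72 and 2.89, below the median of 3.83 over all genes tested. They averaged 2.72 to 2.79 in HepCAV1ko males on MCD against 2.84 to 2.89 on control diet, and 2.75 to 2.77 in HepCAV1wt males on MCD against 2.80 to 2.82 on control diet, without overlap, while the ranges overlapped in the females of both genotypes. Between males and females Rnu3a (0.82) was the 1 of these 12 genes that passed, where 1.68% of all genes were higher and 2% lower. The 12 were set apart by symbol alone, so that RNAs of the box C/D or box H/ACA kind can be among them.

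Markers of some other liver cells moved with the diet, where 9.79% of all genes rose and 9.39% fell. All 5 markers of lipid-associated macrophages rose, with array means of 5.14 to 7.56 on MCD and 4.02 to 4.58 on control diet. So did all 6 markers of stellate cells, at 7.25 to 7.96 on MCD and 6.66 to 7.21 on control diet. Of 5 markers of dividing cells 3 rose, at 3.46 to 4.53 on MCD and 3.24 to 3.88 on control diet, and of 8 hepatocyte markers 0 passed. Of 6 Kupffer cell markers 1 rose and 1 fell, of 6 endothelial, 5 bile duct and 5 lymphocyte markers 1 each rose, and of 6 neutrophil markers 2 rose. Between males and females 0 markers were higher in males, where 1.68% of all genes were higher and 2% lower. The stellate markers Lrat (-0.57) and Dcn (-0.26), the Kupffer cell marker Vsig4 (-0.34) and the endothelial marker Lyve1 (-0.41) were lower in males. The part of these cells in the values of the small RNAs was not tested.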

How the data were processed

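The authors deposited log2 expression values of 24 arrays, 25428 rows, made with RMA per the submitters' processing notes. RMA corrects the background, gives all arrays 1 distribution and summarises probes. Its version, the probe set definition and the genome build are not given in the sources used here. Rows were named through the platform annotation (24705 with 1 symbol, 723 without). With the brighter row of a repeated symbol, 24704 genes were tested.

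limma 3.58.1 (R 4.3.3) fitted the means of the 8 groups with moderated variances and 16 residual degrees of freedom. The Benjamini-Hochberg adjustment ran over all genes tested, and an RNA passed at an adjusted p under 0.05. Averages weight the 4 combinations equally. The fit was tested on simulated data. The number of arrays limits the precision.

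The members and gene lists were chosen with earlier results of these data known. RNAs were named if among the 8 brightest of a type, the 4 of widest range, the called ones with the smallest p (up to 12 in an average, or the 6 smallest p where fewer than 6 were called, and up to 6 in other comparisons), or in a list. Further RNAs were named after their values were seen. Alternatives were centring, repeated quantile normalization, a filter on dim genes, array weights, other variance models, a replicate block, the 6 arrays of a comparison alone and leaving out each array, and, added after seeing the data, leaving out 2 arrays together.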

Additional observations from a re-analysis of the deposited data

Results flagged for a closer look

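Averaged over the genotypes, the difference between MCD and control diet of Snord19 differed between males and females, by a test of that difference itself. In HepCAV1ko the diet difference was 0.27 in males and 0.28 in females, and in HepCAV1wt it was -0.52 in males and 1.75 in females. The interaction was -1.14 on the log2 scale (male minus female, SE 0.24, limma adjusted p = 0.0303), with 3 of 3 control-fed HepCAV1wt female arrays below every other array. Over the 24 omissions of 1 array the interaction was -1.23 to -0.99, and the call was kept in 14 and lost in the 10 named in the report (adjusted p of up to 0.0734). Groups of 3 arrays are too small for a test of single outlying arrays.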

How the results depend on the processing

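No result changed direction among those with a call under any alternative. Counts of called small RNAs moved by over 1.5 times as follows. Without moderated variances they were 8 between males and females in the average, 3 for diet in HepCAV1wt females, 1 for diet in HepCAV1ko males, 0 between HepCAV1ko males and females on MCD, 1 between HepCAV1wt males and females on control diet and 0 for diet by gender. With the 6 arrays of a comparison alone they were 4 (diet, HepCAV1wt males), 5 (diet, HepCAV1wt females), 2 (diet, HepCAV1ko females), 1 (gender, HepCAV1ko on MCD) and 1 (gender, HepCAV1ko on control diet). Array weights gave 8 for diet in HepCAV1ko females, 12 for gender in HepCAV1ko on MCD and 6 for gender in HepCAV1wt on control diet. Trended and robust variances gave 5 and 4 in the same 2 gender comparisons, and genes above the median expression alone gave 6 in the last. The cause was not tested. Leaving out both replicate 2 of the HepCAV1ko males and replicate 1 of the HepCAV1wt males on MCD, chosen after seeing the data, gave a Snord median of 0.18 between HepCAV1ko and HepCAV1wt males on MCD. Leaving out 1 array, that median was 0.34 to 0.58. Leaving out 1 array gave 7 to 21 calls for gender in the average, 4 to 10 for diet in HepCAV1wt males, 1 to 12 in HepCAV1wt females, 1 to 3 in HepCAV1ko males and 2 to 6 in HepCAV1ko females. For gender it gave 0 to 6 in HepCAV1ko on MCD, 0 to 2 in HepCAV1ko on control diet and 1 to 5 in HepCAV1wt on control diet, and for diet by gender 0 to 1. Replicate numbers were not treated as pairs of samples in the main fit. Same-numbered arrays of different groups correlated between -0.138 and 0.251 in their deviations from the group means, with a median of 0.033. Arrays of different groups and other numbers correlated between -0.286 and 0.152, with a median of -0.005. With the number as a replicate block there were 26 calls for diet and 12 for gender in the averages, 10 for diet in HepCAV1wt males, 2 for gender in HepCAV1ko on MCD and 3 in HepCAV1wt on control diet, and the other counts did not move. With 3 arrays a group, single comparisons were the least precise.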
